A study of Mus musculus with 8 samples.

Results

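The genes examined are 9 receptors and co-receptors of the TGF-beta superfamily, taken by symbol from the 18193 genes with a probe set on the arrays: Tgfbr2 and Acvr2a, Tgfbr1, Acvr1b, Acvr1 and Acvrl1, Tgfbr3 and Eng, and Bambi. All probe sets annotated to exactly 1 of these symbols were used, 20 in all, and the brightest of each gene, by its mean over the arrays, gave the main value. Gene expression was measured with Affymetrix mouse arrays in primary palatal mesenchymal cells from embryos of embryonic day 13.5, strain C57BL/6J, grown in standard medium and collected after passage 2. The mutant genotype was Tgfbr2 fl/fl; Wnt1-Cre (4 arrays) and the control genotype was Tgfbr2 fl/fl with no Cre listed (4 arrays). By these genotype entries both carried the floxed alleles, while the sample titles call the controls wildtype. Wnt1-Cre acts in neural crest cells and their descendants. Macrophages, endothelial cells and epithelial cells do not descend from the neural crest. The labels do not say whether each array came from its own embryo, so each p-value reflects spread among these samples only, and that spread may be technical.

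A TGF-beta superfamily ligand binds a type II receptor, whose kinase then activates a type I receptor, and the type I receptor phosphorylates Smad proteins that enter the nucleus. Tgfbr1 and Acvr1b act on Smad2 and Smad3, whereas Acvr1 and Acvrl1 act on Smad1, Smad5 and Smad9. Co-receptors present or withhold ligand, and the decoy receptor Bambi resembles a type I receptor but has no kinase domain. In the mouse palate, loss of Tgfbr2 from the neural crest is known to cause cleft palate.

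The 4 upstream windows below belong to the targeted gene, to its type I partner, and to Acvr2a and Acvr1, the receptor genes whose arrays did not overlap between genotypes. Each holds the 250 bases before the annotated gene start in RefSeq, build GRCm38.p6, written 5′ to 3′ on the gene's own strand. Capitals mark CAGAC or its reverse complement GTCTG, a core of Smad binding elements, and GGGCGG or its reverse complement CCGCCC, the GC box.
Tgfbr2, chr9:116175364-116175613, minus strand: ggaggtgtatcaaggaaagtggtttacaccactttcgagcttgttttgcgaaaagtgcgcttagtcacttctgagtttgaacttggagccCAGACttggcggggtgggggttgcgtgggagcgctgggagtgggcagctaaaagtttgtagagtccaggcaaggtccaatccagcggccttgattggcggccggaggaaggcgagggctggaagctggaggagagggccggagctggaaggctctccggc
Acvr2a, chr2:48813859-48814108, plus strand: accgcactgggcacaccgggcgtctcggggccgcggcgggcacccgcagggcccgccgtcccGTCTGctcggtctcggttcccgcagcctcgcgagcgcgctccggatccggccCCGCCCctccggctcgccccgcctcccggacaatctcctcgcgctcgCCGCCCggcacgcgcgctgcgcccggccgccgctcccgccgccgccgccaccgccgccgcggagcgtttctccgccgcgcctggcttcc
Tgfbr1, chr4:47352972-47353221, plus strand: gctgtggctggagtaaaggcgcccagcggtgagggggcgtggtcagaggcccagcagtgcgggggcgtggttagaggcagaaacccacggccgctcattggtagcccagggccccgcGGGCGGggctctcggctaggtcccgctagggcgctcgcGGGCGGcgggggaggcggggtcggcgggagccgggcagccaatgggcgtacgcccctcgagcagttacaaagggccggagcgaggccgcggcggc
Acvr1, chr2:58566829-58567078, minus strand: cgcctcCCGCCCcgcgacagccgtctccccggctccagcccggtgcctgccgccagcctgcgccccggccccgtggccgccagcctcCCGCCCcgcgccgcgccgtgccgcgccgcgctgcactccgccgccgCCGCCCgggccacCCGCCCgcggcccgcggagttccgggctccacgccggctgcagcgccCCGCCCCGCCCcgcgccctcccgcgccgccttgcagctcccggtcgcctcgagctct
The windows of Tgfbr2 and Acvr2a each held 1 CAGAC match, and those of Tgfbr1 and Acvr1 held 0. GC boxes numbered 2 in Acvr2a, 2 in Tgfbr1 and 6 in Acvr1, overlapping matches counted separately, against 0 in Tgfbr2. A window at another listed start of Tgfbr1, not printed here, held 1 CAGAC match and 0 GC boxes. Of all 32851 windows of this length in the table, 42.2% held CAGAC and 32.7% held GGGCGG on either strand. A match describes these letters only. GC content was 82.0% in Acvr2a and 85.6% in Acvr1, with 74.8% in Tgfbr1 and 58.4% in Tgfbr2. The table had a window for 6 of the 9 genes.

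Markers of mesenchyme were bright, with 13 of 14 above the median probe set (log2 intensity 6.93) on all 8 arrays. Macrophage markers were bright too, with 20 of 21 above that median throughout and Lyz2, Cd52 and Fcer1g the brightest. Their mean was 12.95, 12.93, 12.97 and 10.73 in mutants 1 to 4, and 12.14, 12.34, 10.93 and 10.70 in controls 1 to 4. The difference in this mean, 12.40 ± 1.11 in mutants and 11.53 ± 0.83 in controls (SD, n = 4 each), gave p = 0.2 in an exact two-sided permutation test (0.333 after adjustment for 5 marker lists). Each of the 21 macrophage markers averaged higher in mutants (median difference 0.77 on the log2 scale), where 48.3% of all genes did. Endothelial markers were mostly dim, with 5 of 17 above that median throughout, and their means ran from 6.56 to 6.67 in mutants and from 6.57 to 6.69 in controls. Epithelial markers above it numbered 3 of 12 and pericyte markers 4 of 9. The epithelial mean was 6.61 to 6.69 in mutants and 6.46 to 6.60 in controls (p = 0.0286 in the same exact permutation test, the minimum for 4 arrays a side, and 0.143 after adjustment). Replicates 1 and 2 had bioB spike signals of 6.34 to 6.52 in either genotype, and replicates 3 and 4 of 8.24 to 8.79. The labels name no batch. The arrays are split here by these signals alone, and the sets are called the first and second hybridisation batch.

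None of the 9 receptor genes passed the test between genotypes, while 5 had an unadjusted p under 0.05. In limma with Benjamini-Hochberg adjustment over all genes, 0 of 9 had an adjusted p of at most 0.05, where 0.0879% of all genes did (0.022% higher and 0.066% lower in mutants). At an adjusted p of at most 0.1 the count was also 0, where 0.225% of all genes passed. Of the 5 at an unadjusted p under 0.05, a level that 15.5% of all genes reached, Bambi, Tgfbr1 and Acvr1b were higher (5.84% of all genes) and Acvr2a and Acvr1 were lower in mutant cells (9.69%). The mutant arrays did not overlap the control arrays for Acvr2a and Acvr1, both lower, where 5.18% of all genes did not overlap with mutants lower, 2.89% with mutants higher and 8.07% in either direction. When limma took the hybridisation batch as a block, 6 receptor genes reached that level, as did 4012 of the 18193 genes. Acvr1b left the set, while Acvrl1, higher in mutants, and Eng, lower in mutants, entered it (adjusted p = 0.211 for Acvrl1 and 0.179 for Eng in limma). The median difference over the 9 genes was 0.38 on the log2 scale, against -0.01 over all genes, and 6 of the 9 differences were positive, as were 48.3% of those of all genes.

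**Figure D1:**
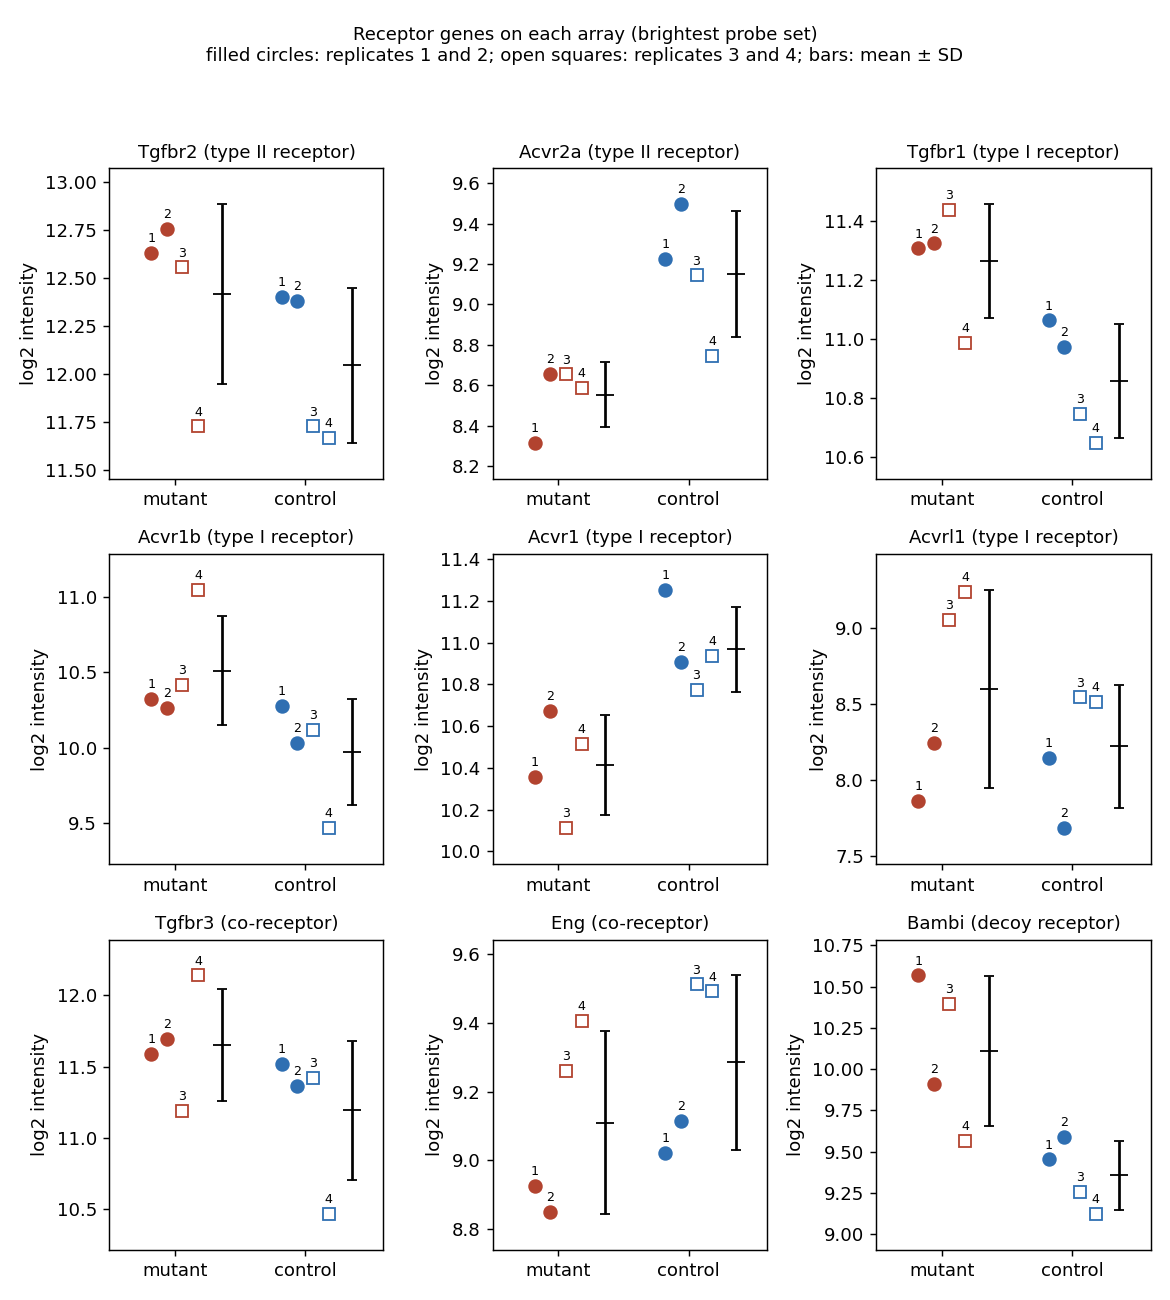
Log2 intensity of the brightest probe set of each receptor gene, mutant arrays left and control arrays right, with replicate numbers beside the points and mean ± SD (n = 4) to their right. Acvr2a and Acvr1 are lower on all mutant than on all control arrays, and Tgfbr2 reads 11.73 on mutant 4 beside 12.55 to 12.76 on the other mutants.

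The targeted gene Tgfbr2 encodes the type II receptor for TGF-beta itself, and its brightest probe set (1426397_at) was not lower in mutant cells. It read 12.63, 12.76, 12.55 and 11.73 in mutants 1 to 4, and 12.40, 12.38, 11.72 and 11.66 in controls 1 to 4. High arrays were mutants 1 to 3 and controls 1 and 2, low arrays were mutant 4 and controls 3 and 4, and the genotypes overlapped. The difference was 0.37 (SE 0.27, 95% interval -0.24 to 0.99, adjusted p = 0.538 in limma). The 5 high arrays were also the 5 with the highest macrophage marker means. With that mean as a covariate, the Tgfbr2 difference was -0.01 (SE 0.09), and its part in the result was not otherwise tested. In such bulk samples, fewer cells of a type and less RNA per cell cannot be told apart. Without mutant 4 the Tgfbr2 difference was 0.60, and without control 4 it was 0.25.

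Further Tgfbr2 probe sets gave smaller differences. Probe set 1425444_a_at read 7.57 to 7.84 in mutants and 7.55 to 7.71 in controls, a difference of 0.08 (SE 0.08). The dim probe set 1422019_at read 4.08 to 4.22 in mutants and 3.93 to 4.24 in controls, a difference of 0.07 (SE 0.09). The position of these probes relative to the floxed segment was not found in the labels or annotation, so the values do not check the genotype labels, and every direction given here rests on the labels.

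The gene with the pattern most like Tgfbr2 was Tbxas1, the thromboxane synthase gene. Likeness was the root mean square distance between log2 profiles over the 8 arrays after each gene's mean was subtracted, among 12166 genes brighter than the median probe set, and it was 0.06 for Tbxas1. This gene read 9.10, 9.15, 9.07 and 8.19 in mutants, and 8.72, 8.87, 8.09 and 8.08 in controls. Next were Eps15, an endocytic adaptor gene, at 0.09, and Gltp, a glycolipid transfer protein gene, also at 0.09.

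The activin type II receptor gene Acvr2a, whose product binds activins and several BMPs, was lower in mutant cells on both probe sets annotated to it alone. The brighter, 1437382_at, read 8.32, 8.65, 8.65 and 8.59 in mutants, and 9.23, 9.50, 9.14 and 8.74 in controls. All mutant arrays lay below all control arrays. The difference was -0.60 (SE 0.16, 95% interval -0.96 to -0.23, adjusted p = 0.189 in limma), a ratio of 0.66 between mutant and control. Probe set 1451004_at read 7.81, 8.07, 7.86 and 8.10 in mutants, and 8.87, 8.86, 8.57 and 8.49 in controls, again without overlap. Its difference was -0.74 (SE 0.12, adjusted p = 0.110 in the limma fit of probe sets). A dim probe set annotated to both Orc4 and Acvr2a went the other way. It read 4.22, 4.47, 4.25 and 4.40 in mutants, and 4.12, 3.92, 4.09 and 4.21 in controls, with every mutant array above every control array. Its difference was 0.25 (SE 0.09, adjusted p = 0.282 in the limma fit of probe sets), and which gene it detects was not tested.

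Within batches the Acvr2a difference was -0.88 in the first hybridisation batch (adjusted p = 0.0179 in limma, where 11.5% of all genes passed) and -0.32 in the second, where no gene passed and 947 genes had an unadjusted p under 0.05. A test of the difference between these values, the genotype by batch term, gave 0.55 and did not pass (adjusted p = 1.00 in limma). That term passed for 0% of all genes in limma and had an unadjusted p under 0.05 for 4.38%. With the macrophage mean as a covariate Acvr2a differed by -0.69 (SE 0.17). The genes most like it in pattern were Myorg (distance 0.08), Ucma (0.12), which encodes a secreted protein of cartilage, and the noncoding RNA gene Snhg16 (0.12).

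Tgfbr1 encodes the type I partner of Tgfbr2. Its brightest probe set, 1420895_at, read 11.31, 11.32, 11.44 and 10.99 in mutants, and 11.06, 10.97, 10.75 and 10.65 in controls. Mutant 4 fell among the controls, and the other mutants lay above them. The difference was 0.41 (SE 0.13, 95% interval 0.11 to 0.70, adjusted p = 0.221 in limma). Without mutant 4, the mutant array lowest in macrophage markers, it was 0.50 (adjusted p = 0.0456 in limma, where 7.23% of all genes passed), and it was 0.24 (SE 0.08) once the macrophage mean entered the fit. The other Tgfbr1 probe sets were dim and differed by 0.06 (SE 0.13) and 0.11 (SE 0.13). With the 3 probe sets averaged the Tgfbr1 difference was 0.19.

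Acvr1b, the type I receptor for activins and nodal, was higher on both of its probe sets. Probe set 1433725_at read 10.32, 10.26, 10.41 and 11.05 in mutants, and 10.28, 10.03, 10.12 and 9.47 in controls. The highest array was mutant 4 and the lowest control 4, and the genotypes overlapped through mutant 2 and control 1. The difference was 0.54 (SE 0.22, 95% interval 0.03 to 1.05, adjusted p = 0.300 in limma). It was 0.14 in the first hybridisation batch and 0.94 in the second, and the genotype by batch term was 0.80 (adjusted p = 1.00 in limma). Without mutant 4 the Acvr1b difference was 0.36. Probe set 1422098_at read 7.64, 7.53, 7.72 and 7.80 in mutants, and 7.28, 7.37, 7.45 and 7.56 in controls. Its difference was 0.26 (SE 0.09, adjusted p = 0.276 in the limma fit of probe sets). On it control 4 was the highest control and lay above mutant 2, so the genotypes overlapped.

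Closest to Acvr1b in pattern were Gsap (distance 0.15), the chemokine gene Cxcl16 (0.15) and the ceruloplasmin gene Cp (0.16). All 3 shared the high mutant 4 and the low control 4. Cxcl16, for example, read 12.54 on mutant 4 against 11.19 on control 4. The mesenchyme marker mean was also highest on mutant 4 (12.50) and lowest on control 4 (11.68), and its part in the Acvr1b difference was not tested.

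Acvr1, a type I receptor that mainly transmits BMP signals, gave opposite signs on different probe sets. The brightest, 1448460_at, read 10.36, 10.67, 10.11 and 10.51 in mutants, and 11.25, 10.91, 10.77 and 10.94 in controls, with every mutant array below every control array. The difference was -0.55 (SE 0.15, 95% interval -0.89 to -0.22, adjusted p = 0.189 in limma). It was -0.57 and -0.54 in the first and second hybridisation batch, and -0.56 once the macrophage mean entered the fit.

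A second Acvr1 probe set, 1416786_at, read 7.58, 7.95, 8.14 and 8.46 in mutants, and 8.34, 8.13, 8.19 and 8.62 in controls, a difference of -0.29 (SE 0.19) with overlap. The dimmest, 1416787_at, read 7.35, 7.15, 7.10 and 7.19 in mutants, and 7.07, 7.03, 6.97 and 6.97 in controls. Here every mutant array lay above every control array, by 0.18 on average (SE 0.07, adjusted p = 0.323 in the limma fit of probe sets). With the 3 probe sets averaged, Acvr1 differed by -0.22 (adjusted p = 0.328 in limma). The annotation used does not tell which Acvr1 transcripts each probe set detects. The patterns nearest to that of 1448460_at were those of Ado (distance 0.08), the methionyl-tRNA synthetase gene Mars1 (0.09) and the tyrosine kinase gene Yes1 (0.09).

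Acvrl1, a type I receptor best known from endothelial cells, had a wide spread within each genotype. Probe set 1451604_a_at read 7.86, 8.25, 9.05 and 9.24 in mutants, and 8.15, 7.68, 8.55 and 8.51 in controls. Replicates 3 and 4 were high and replicates 1 and 2 low in both genotypes. The genotype difference was 0.38 (SE 0.33, 95% interval -0.38 to 1.14, adjusted p = 0.614 in limma). Without mutant 4 the Acvrl1 difference was 0.17, without mutant 1 it was 0.62, and once the macrophage mean entered the fit it was 0.73 (SE 0.26). Probe set 1435825_at gave a difference of 0.01 (SE 0.17), whose sign turned when each array was centred on its median (-0.02).

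Eng encodes endoglin, a co-receptor of endothelial cells that is also found on mesenchymal stromal cells. Its brightest probe set, 1417271_a_at, read 8.93, 8.85, 9.26 and 9.41 in mutants, and 9.02, 9.11, 9.51 and 9.49 in controls. Replicates 3 and 4 again stood above replicates 1 and 2 in both genotypes. The genotype difference was -0.17 (SE 0.17, 95% interval -0.56 to 0.21, adjusted p = 0.648 in limma), and it was 0.01 once the macrophage mean entered the fit. Without mutant 2 the Eng difference was -0.09, without control 3 it was -0.10 and without mutant 4 it was -0.27. Probe set 1432176_a_at differed by -0.26 (SE 0.14).

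The step between batches was tested for all genes in a fit with genotype and batch, a test added after seeing the data. Eng averaged 9.42 in the second and 8.98 in the first batch, a difference of 0.44 (SE 0.06, adjusted p = 0.0353 in limma). Acvrl1 averaged 8.84 in the second and 7.99 in the first, a difference of 0.85 (SE 0.15, adjusted p = 0.0413 in limma). These were the only receptor genes of the 9 past the threshold for batch, which 3.19% of all genes passed, 1.85% higher in the second. Further probe sets differed in the same direction, by 0.34 for Eng (adjusted p = 0.0432 in the limma fit of probe sets) and 0.42 for Acvrl1 (adjusted p = 0.0566). The dim Tgfbr1 probe set 1420893_a_at differed the other way, by -0.32 (adjusted p = 0.0470 in that limma fit). Both calls ended with the macrophage mean as a covariate, where Eng differed by 0.37 and Acvrl1 by 0.77. They also ended without any 1 array other than mutant 3 or control 4, with differences of 0.41 to 0.46 for Eng and 0.73 to 0.99 for Acvrl1.

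The endothelial marker mean was 6.61, 6.56, 6.67 and 6.62 in mutants, and 6.59, 6.57, 6.60 and 6.69 in controls. This endothelial mean was higher in the second batch in both genotypes, by less than Eng or Acvrl1, and most of its markers were dim. Its brightest markers, Egfl7 and Kdr, averaged lower in the second batch in both genotypes. Flt1, the next named, averaged higher there in both, so the list did not move as a whole. The pericyte marker mean was 6.85, 6.91, 6.99 and 7.33 in mutants, and 7.07, 7.16, 7.68 and 7.56 in controls, higher in the second batch in both genotypes. Its marker Mcam read 7.13, 7.52, 7.68 and 8.75 in mutants, and 8.01, 7.24, 9.65 and 10.83 in controls. The bright markers Cspg4 in mutants and Ndufa4l2 in controls did not average higher in the second batch. The part of either marker list in the Eng and Acvrl1 values was not tested. The genes nearest to Acvrl1 in pattern were Cox6b2 (distance 0.19), the ligand gene Bmp4 (0.24) and Zfyve1 (0.24), all farther from it than the neighbours of the other receptors from theirs.

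**Figure D2:**
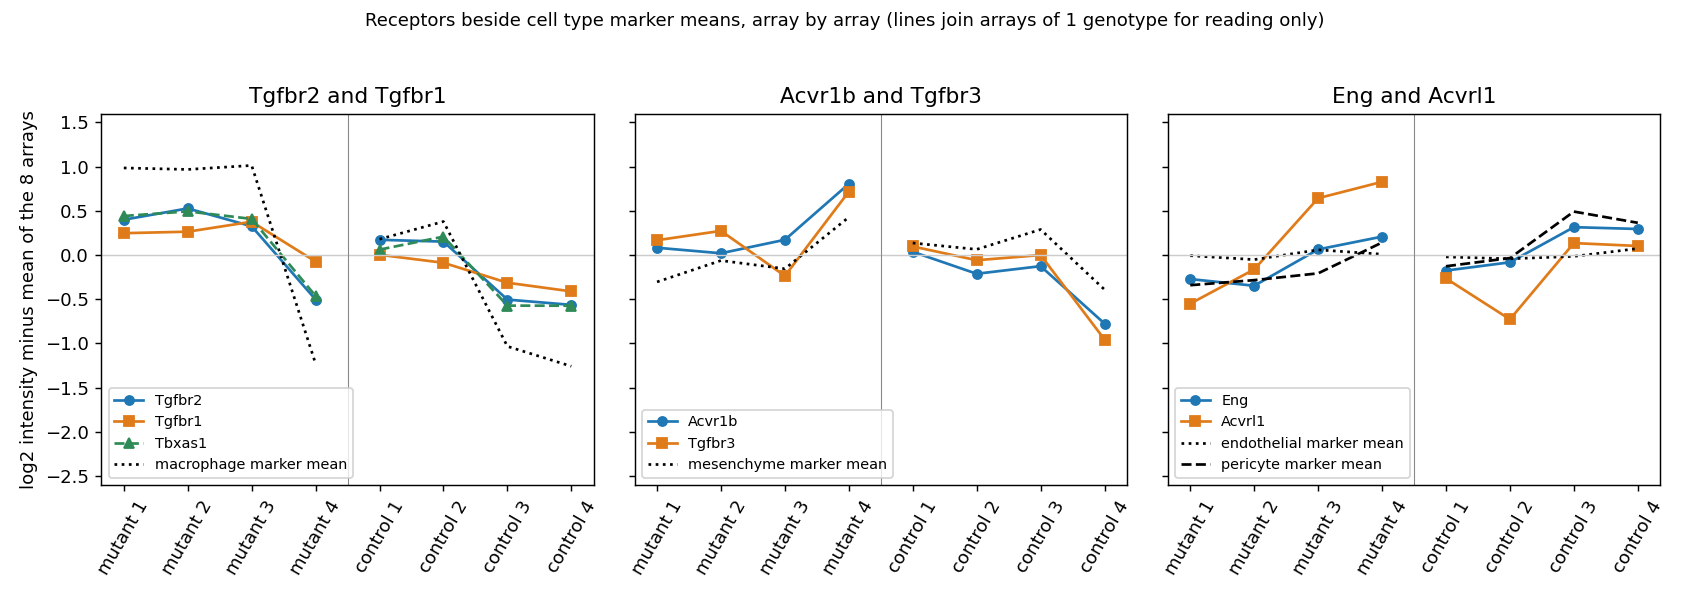
Log2 intensity on each array minus the mean of the 8 arrays, mutants left and controls right in each panel, for 6 receptor genes beside the gene Tbxas1 and the means of marker lists. Tgfbr2 drops with the macrophage mean on mutant 4 and controls 3 and 4. Acvr1b and Tgfbr3 are both highest on mutant 4 and lowest on control 4, and Eng and Acvrl1 stand higher on replicates 3 and 4.

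Tgfbr3 encodes betaglycan, the co-receptor that presents TGF-beta ligands to Tgfbr2. Its bright probe set, 1433795_at, read 11.59, 11.70, 11.19 and 12.14 in mutants, and 11.52, 11.37, 11.42 and 10.47 in controls. Control 4 stood far below the other controls and mutant 4 above the other mutants. The difference was 0.46 (SE 0.27, 95% interval -0.16 to 1.08, adjusted p = 0.451 in limma). Without control 4 the Tgfbr3 difference was 0.22. The dim probe set 1425620_at differed by 0.12 (SE 0.09), and on it control 4 (6.08) was the highest control. The neighbours of Tgfbr3 in pattern were the receptor gene Tlr2 (distance 0.15), Rnf144b (0.15) and Cp (0.16), a gene also near Acvr1b.

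Bambi, the decoy receptor, had the largest difference of the 9 genes on the main probe sets. Its single probe set, 1423753_at, read 10.57, 9.91, 10.39 and 9.57 in mutants, and 9.45, 9.59, 9.26 and 9.12 in controls. Only mutant 4, at 9.57, and control 2, at 9.59, overlapped. The difference was 0.75 (SE 0.22, 95% interval 0.25 to 1.26, adjusted p = 0.200 in limma), a ratio of 1.69, and it was 0.72 and 0.79 within the first and second hybridisation batch. Without mutant 4 the Bambi difference was 0.94 (adjusted p = 0.0294 in limma, where 7.23% of all genes passed). With all arrays it was 0.50 (SE 0.15) once the macrophage mean entered the fit. The probe set annotated to the pseudogene Bambi-ps1 read 8.07, 7.87, 8.48 and 7.23 in mutants, and 7.65, 7.69, 7.56 and 7.66 in controls. Cross-hybridisation between the gene and this copy was not tested.

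Neighbours of Bambi in pattern were the transcription factor gene Ascl2 (distance 0.14), Dram2 (0.15) and the cathepsin H gene Ctsh (0.15). Dram2 read 12.46, 12.07, 12.39 and 11.27 in mutants, and 11.36, 11.61, 10.96 and 11.05 in controls. Mutants 1 and 3 were the 2 highest arrays for Bambi, for Dram2 and for Ascl2 alike.

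Across all 20 probe sets, 8 had an unadjusted p under 0.05 in limma, 5 higher and 3 lower in mutant cells, where 14.1% of all probe sets did, 6.95% higher and 7.2% lower. None passed after adjustment, where 0.00222% did. Of the 11 further probe sets, 10 had the sign of the brightest probe set of their gene, the exception being 1416787_at of Acvr1. The 4 probe sets whose mean lay below the median probe set belonged to Tgfbr2, Tgfbr1 and Tgfbr3. Groups did not overlap for 4 probe sets, where 7.56% of all probe sets did not, 3.91% with mutants higher and 3.66% with mutants lower. These were both of Acvr2a and 1448460_at of Acvr1, all lower, and 1416787_at of Acvr1, higher.

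**Figure D3:**
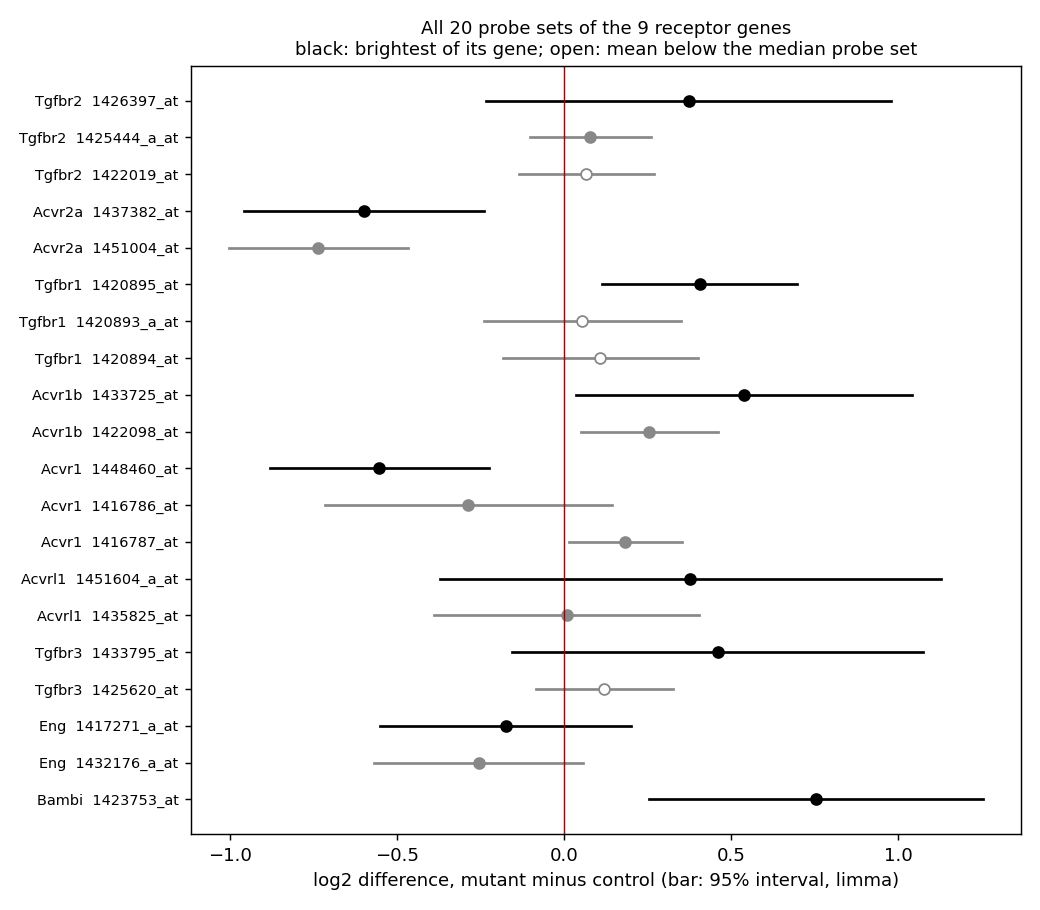
Log2 difference, mutant minus control, for each of the 20 probe sets with its 95% interval from limma over all probe sets (n = 4 arrays per genotype). Both Acvr2a probe sets lie below 0, both Acvr1b probe sets above it, and those of Acvr1 run from -0.55 to 0.18.

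Refits of the genotype difference called 0 of the 9 genes under most settings. The share of all genes called in those was 0.077% after quantile normalization, 0.066% after median centring or averaging of probe sets, 0.0165% with the most variable probe set and 0.0934% with a variance trend. It was 0.123% without dim genes, 0.11% with the hybridisation batch as a block, 0.341% with the macrophage mean and 0% with the replicate block. With 1 array left out it was 0% without mutant 1 or 2 or control 1, 0.0055% without mutant 3 or control 3, 0.011% without control 2 and 0.17% without control 4.

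Other receptors and co-receptors of the superfamily had a median near that of all genes. In this and the lists that follow, counts at an unadjusted p under 0.05 stand beside 9.69% of all genes lower and 5.84% higher. Of 16 measured, 0 passed in limma, 2 were lower at an unadjusted p under 0.05 and 0 were higher, with a median of -0.01. Neo1, a receptor for repulsive guidance molecules, differed by -0.72 (SE 0.29), the TGF-beta trap gene Vasn by -0.27 (SE 0.11) and the co-receptor gene Cfc1 by 0.21 (SE 0.09). Neo1 read 9.11, 9.35, 9.18 and 9.55 in mutants, and 10.38, 10.62, 9.89 and 9.19 in controls, with control 4 among the mutants.

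Proteins that bind, traffic or switch off the receptors were measured for 21 genes, and 15 differences were negative. None passed in limma, 4 were lower at an unadjusted p under 0.05 and 0 were higher, with a median of -0.19. Pmepa1, which restrains the pathway, differed by -1.04 (SE 0.31), the ubiquitin ligase gene Smurf2 by -0.33 (SE 0.13) and Snx25, a sorting nexin gene, by -0.22 (SE 0.09). Mutant 4 read 11.10 for Pmepa1, beside 9.79 to 10.25 on the other mutants and 10.83 to 11.69 in controls.

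Ligands and their traps, 30 genes with a median of -0.08, had 0 past the limma test, 1 lower at an unadjusted p under 0.05 and 0 higher. That gene was Bmp2, which read 6.29, 6.75, 5.93 and 7.82 in mutants, and 8.74, 8.01, 8.88 and 7.63 in controls (difference -1.62, SE 0.43). The activin subunit gene Inhba differed by -1.02 (SE 0.52) and Fstl1, a secreted follistatin-like protein gene, by -0.32 (SE 0.15). Of 10 Smad and Ski genes, 0 passed in limma and 1 was lower at an unadjusted p under 0.05, with a median of -0.13. The 3 with the smallest p were Smad3 (-0.24, SE 0.09), Smad5 (-0.30, SE 0.14) and the common Smad gene Smad4 (-0.21, SE 0.10).

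Of 26 genes that TGF-beta induces, 23 had a negative difference, where 48.3% of all genes had a positive one, and the median was -0.38. None passed in limma, 11 were lower and 0 higher at an unadjusted p under 0.05. The lists share genes: Pmepa1 counts as lower here and among the receptor regulators, and Smad7, Ltbp2 and Skil also sit in another list. Col1a1, Col1a2 and Col3a1 are also mesenchyme markers here, and Col1a1 and Col3a1 count among the lower targets. The metalloprotease inhibitor gene Timp3 differed by -0.67 (SE 0.17) and the matrix gene Postn by -0.37 (SE 0.12). Of 14 genes that BMPs induce, a list that holds Bambi itself, 0 passed in limma, 3 were lower and 1, Bambi, higher at an unadjusted p under 0.05, with a median of -0.04. The homeobox gene Dlx5 read 6.54, 6.87, 7.09 and 6.48 in mutants, and 8.13, 7.82, 7.80 and 7.76 in controls, a difference of -1.13 (SE 0.15, adjusted p = 0.0607 in limma). Id1 differed by -0.48 (SE 0.13) without overlap and Id3 by -0.45 (SE 0.19).

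**Figure D4:**
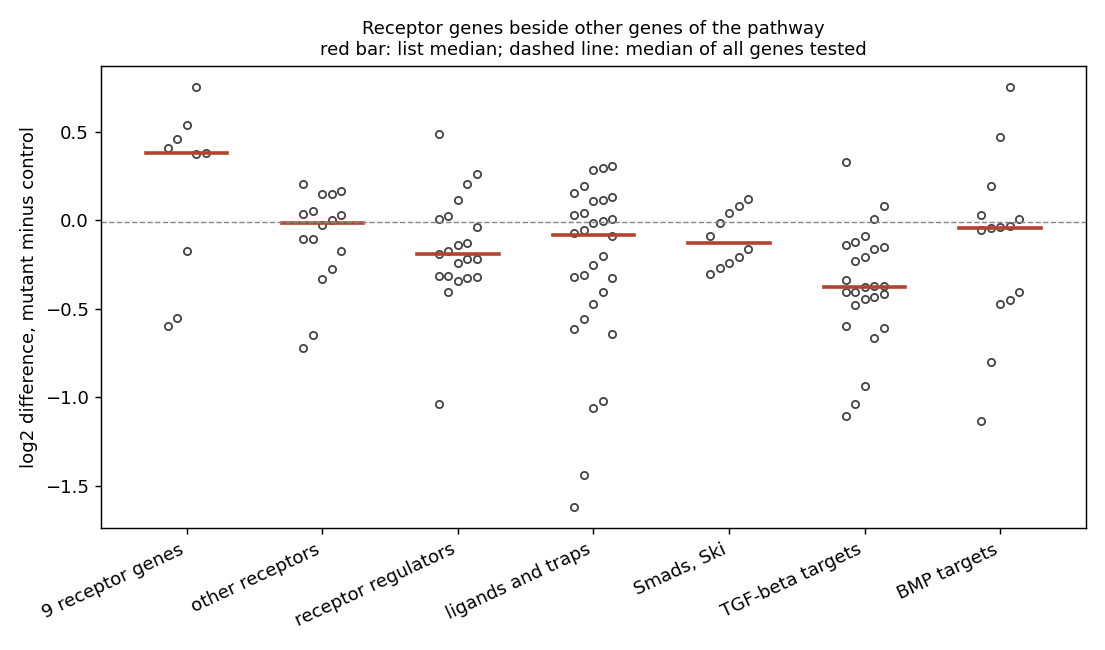
Log2 difference, mutant minus control, of each measured gene (points) and the median (red bar) for the 9 receptor genes and 6 other lists of the pathway, with the median of all genes as a dashed line. The receptor median is 0.38 and that of the TGF-beta target list -0.38, and Bambi appears in both the first and the last column.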

How the data were processed

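Labelled RNA from 8 samples, 4 mutant and 4 control by their titles, was hybridised to Affymetrix mouse arrays, per the labels' protocols. The deposited values are log2 intensities per probe set, made by the authors with RMA per the submitters' processing notes; the version was not given in the sources used here. They ran from 3.21 to 15.18, with array medians from 6.90 to 6.96, and were used as deposited. The number of arrays limits the precision.

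Symbols came from the platform's annotation, updated by Entrez identifier. Of 45101 probe sets, 64 were array controls and 34945 had 1 symbol. A probe set annotated to both Orc4 and Acvr2a was left out of the members. Each gene took its brightest probe set. Differences (mutant minus control, two-sided) came from limma 3.58.1, run in R 4.3.3, over all 18193 genes, and separately over 45037 probe sets, with Benjamini-Hochberg adjustment and a threshold of 0.05. SE is limma's moderated error. The procedure was tested on simulated data.

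Members and lists were chosen with earlier results of these data known, and no list was tested as a set. Of 194 listed pathway and marker genes 186 were measured. Named genes were the 9 members, up to 3 genes of each pathway list with the smallest p, the 3 nearest patterns of each member spanning at least 1 on the log2 scale, and the 3 brightest genes of a marker list. Bmpr1a, Bmpr1b and Bmpr2 were named in addition. The hybridisation batch comparison was added after seeing the data. Alternatives covered normalization, probe set choice, dim genes, variance model, array weights, batch, replicate number, the macrophage covariate, thresholds and leaving out each array.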

Additional observations from a re-analysis of the deposited data

Results flagged for a closer look

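Tgfbr3 on control 4 stood apart from its group. Probe set 1433795_at read 10.47 there and 11.37 to 11.52 on the other controls, and this gap was 0.852 of the range of the 4 control arrays, above Dixon's 95% critical value. Of 40 groups of 4 arrays examined this was the single such case, where chance gives about 1 in 20. On the dim Tgfbr3 probe set control 4 was the highest control.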

How the results depend on the processing

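Of the alternative fits of the 9 gene differences, 172 kept the direction and the side of the threshold, 6 passed it newly and 2 turned sign. Tgfbr2 turned to -0.00663 and Eng to 0.0134 when the macrophage mean was in the fit. The count of 9 genes past the threshold, 0 as deposited in limma with 5 at an unadjusted p under 0.05, was 3 with array weights (Acvr2a, Acvr1 and Bambi, where 8.08% of all genes passed) and 1 in the first hybridisation batch (Acvr2a). In that batch 11.5% of all genes passed. The count ran from 0 to 2 with 1 array left out, reaching 2 without mutant 4 (Tgfbr1 and Bambi), where 7.23% of all genes passed. Array weights gave adjusted p = 0.0234 for Acvr2a, 0.0412 for Acvr1 and 0.0426 for Bambi in limma, and over their alternatives adjusted p ran from 0.0179 to 0.819 for Acvr2a, from 0.0412 to 0.819 for Acvr1 and from 0.0294 to 0.819 for Bambi. The cause was not tested.

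The median over the 9 genes was 0.19 after averaging each gene's probe sets, 0.14 within the first hybridisation batch, and 0.25 to 0.47 with 1 array left out. Of the alternative fits of the 20 probe set differences, 231 were unaltered in direction and call and 7 turned sign: Acvrl1 1435825_at read -0.0236 with centred arrays and -0.13 to 0.0984 with 1 array left out (4 of these below 0, up to -0.00905), and Tgfbr1 1420893_a_at read -0.0233 and -0.00969 in 2 such fits and at most 0.14. In 2 more, without mutant 4, Acvr2a 1451004_at (-0.78) and Bambi (0.94) passed the threshold. Without that array 7.23% of all genes passed in the gene fit.

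Replicate numbers are shared by the genotypes, and numbers 1 and 2 fall in one hybridisation batch and 3 and 4 in the other. Deviations of same-numbered arrays correlated over genes from -0.09 to 0.47, so within a batch the numbers are not taken to pair arrays. With the replicate block 0 of 18193 genes passed in limma, against 16 without it, and so 0 of the 9 receptor genes. At an unadjusted p under 0.05 there were 3828 genes with that block. They included 5 of the 9 receptor genes, with Tgfbr2, higher in mutants, in place of Acvr1b. No mutant array correlated best with the control array of its own number. No array files before RMA were used, so signal over background could not be weighed for the 4 dim probe sets.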
